A study of Mus musculus with 53 samples.

Results

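Bulk RNA was examined from cerebella of newborn mice in which Insm1 had been deleted in the Atoh1 lineage. These 8 libraries were chosen by the allele and the assay given in the labels, out of 53 samples in the series. The 4 mutants carried Atoh1Cre with Insm1fl/fl, and the 4 controls carried Insm1fl/fl without Cre. All were taken at postnatal day 2 (P2), each from the cerebellum of a single pup, as stranded total RNA, and all belong to sequencing batch 2 in the labels. A second deletion at the same age, Atoh1Cre with Tead1fl/fl and Tead2fl/fl (4 mutants, 3 controls with the floxed alleles alone, batch 3), is used for comparison near the end. Expected counts were given for 55573 genes other than spike-in sequences, and 19582 of them passed the filter on low counts and were tested.

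INSM1 is a zinc-finger repressor of neuroendocrine cells and of neuronal progenitors that are about to leave the cell cycle. It works with the LSD1-CoREST histone demethylase complex, which also serves other neuronal repressors. The Atoh1 lineage arises in the rhombic lip and gives the cerebellar granule cells, whose progenitors divide after birth in the outer layer of the cerebellum under Sonic hedgehog from Purkinje cells. Atoh1Cre acts in that lineage, so other cerebellar cells that use Insm1 keep the gene. In whole tissue, fewer cells of a type and less RNA per cell cannot be told apart.

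The libraries held 29507827 to 42125727 expected counts, and 19158 to 20366 genes reached 10 counts in each. Controls 1 and 4 and mutant 1 stood apart on the first principal component (-28.4, -31.8 and 50.9, the others between -3.05 and 8.95). Mitochondrial transcripts took 5.83% and 5.38% of the counts in those controls and 3.03% in that mutant, although control 3 was also at 3.03%. The 7SK RNA gene Rn7sk took 3.30%, 3.01% and 4.90%. Xist was expressed in all 4 controls and in mutants 1 and 2, and the Y-linked gene Ddx3y in mutants 3 and 4, so sex was not balanced. The part of these differences in the results below was not tested beyond the values given with each.

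Across all genes, 135 were called, that is, had an adjusted p under 0.05 in edgeR's quasi-likelihood test. That is 0.689% of those tested. Of the 135, 94 were higher in mutants (0.48% of genes tested) and 41 were lower (0.209%). Counts of genes called by edgeR in the lists below are to be read against these shares. DESeq2, an alternative test, called 314 of the 19582 genes, 184 higher and 130 lower. Counts by DESeq2 in the lists are to be read against those numbers. Groups did not overlap for any of the 135 genes called by edgeR. An unadjusted p under 0.05 was found for 1763 genes, 9% of those tested, the share against which such counts in the gene lists below are to be read. Over all genes tested, 3.16% had every mutant above every control and 3.02% had every mutant below. The median log2 change was 0.006, with 51.5% of genes above 0 and 48.5% below. Of the 94 higher genes, 38 were in a list of skeletal muscle genes and 56 were not. That list is not complete, and the 56 include striated muscle genes such as Trim55, Hspb2, Hrc, Synpo2l, Mypn and Tpm2. Over all 4 controls Trim55 and Hspb2 had 7 counts each, Hrc 20 and Mypn 24, so these passed the count filter only through the mutants.

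Calls were sensitive to single libraries. Leaving out each library in turn gave between 64 calls (without control 1) and 132 (without mutant 1), and 55 of the 135 were called in all 8 of these fits, 39 of them higher and 16 lower. The counts without the other libraries were 95 (control 2), 74 (control 3), 72 (control 4), 83 (mutant 2), 102 (mutant 3) and 67 (mutant 4). With a term for sex 88 genes were called, and among the Xist libraries alone 49. All 135 kept their sign in each of these fits. All 4 controls were Xist libraries, so with a sex term the fitted change rests on mutants 1 and 2. The fits with a sex term and in the Xist libraries are therefore not separate checks (Dmrta1 log2 change -1.733 and -1.736). Of the genes named below as called, Uncx, En1, Calb2, Gm17322, Stra6, Mfng, Tead4, Rcor2, Erbb3, Mest, Myog, Mef2c, Jsrp1, Gm10654, Gm45577, C230057A21Rik and B020018J22Rik were not called with a sex term. Their adjusted p then ran from 0.0597 (Mest) to 0.206 (En1). In the Xist libraries, which leave 2 mutants, several genes that kept their call without any single library lost it. Among them were Dmrta1 (adjusted p = 0.0575), Pcsk2 (0.0571), St18 (0.0803), Gdnf (0.0875), Cdkn1c (0.0901), Gm10654 (0.14) and Gm17322 (0.148), while Otx1, Islr, Sfrp1, Hsd11b2, Clcf1, Col9a1 and Gm28653 were called there too.

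**Figure D1:**
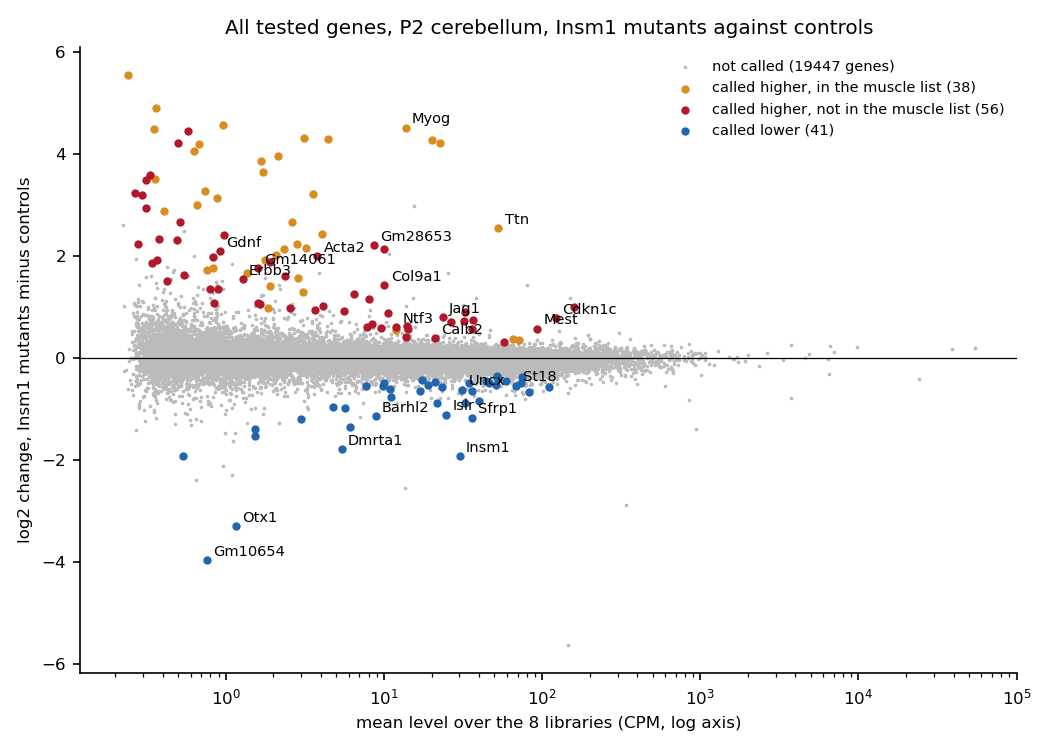
Each point is 1 of the 19582 tested genes, with its mean level over the 8 libraries (CPM, that is counts scaled to a common library size, log axis) against its log2 change in Insm1 mutants. Blue marks the 41 called lower, orange the 38 higher genes of the muscle list and red the other 56 higher genes. The lowest called points are Gm10654 and Otx1 (-3.95 and -3.29), and Myog is among the high points (4.52).

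Insm1 itself was at 30.9, 31.5, 56.6 and 71.9 CPM in controls 1 to 4. In mutants 1 to 4 it was at 10.7, 8.48, 16.2 and 15.3 CPM. Every mutant lay below every control, although the controls differed among themselves more than the mutants did. The log2 change was -1.91 ± 0.30 (SE, n = 4 against 4, adjusted p = 0.0194). That call was lost without control 3, mutant 2 or mutant 4 (adjusted p up to 0.0612). The gene lies on chromosome 2, 146221997 to 146225020 (GRCm38.p6), and which part of it is floxed is not given in the sources used here.

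Transcription factors of the rhombic lip and of granule cell progenitors made up the group with the most falls outside Insm1. Of 28 tested members, 6 were called lower (Otx1, Insm1, Dmrta1, Barhl2, Nhlh1 and En1), against 0.209% of all genes, and none higher. In 10 of 28 members every mutant lay below every control, against 3.02% of all genes. Insm1, the deleted gene, is counted in both numbers, and the list was chosen with earlier results of these data known. The median of the list was -0.12, and 20 of 28 members were below 0. Without single libraries, 2 (without mutant 2 or mutant 4) to 5 (without mutant 3) members were called lower, and with a sex term 5. DESeq2 called 8 lower.

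Otx1, a homeobox gene of the anterior brain and of the posterior granule cell lineage, had the largest fall of any called coding gene. It was at 1.72, 1.56, 2.00 and 3.15 CPM in the controls, and at 0.319, 0.205, 0.235 and 0.0639 CPM in the mutants. No mutant came near the lowest control. Otx1 passed the count filter only through the controls, so the size of its fall and its rank are not well measured. The log2 change was -3.29 ± 0.37 (SE), with an adjusted p of 0.00343, and the call held without any single library and with a sex term (adjusted p = 0.031).

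Dmrta1, a DM-domain transcription factor, fell from 6.43, 8.18, 10.3 and 8.60 CPM to 3.14, 1.85, 2.58 and 2.08 CPM. The highest mutant was below the lowest control. Its log2 change was -1.79 ± 0.19 (SE, adjusted p = 0.00285), and it too was called without any single library.

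Barhl2, a homeobox gene related to the granule cell factor Barhl1, was at 10.4, 12.96, 11.99 and 13.5 CPM in controls and at 3.93, 4.23, 8.52 and 5.62 CPM in mutants. Mutant 3 was the nearest to the controls. The log2 change of -1.14 ± 0.22 (SE) had an adjusted p of 0.0499. It was called only without mutant 3 among the 8 fits, and the adjusted p rose to 0.165 in the others.

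Nhlh1 and En1 were the other members called, and their values are given although the rule for named genes did not pick them. Nhlh1, a bHLH factor of young postmitotic neurons, was at 26.1, 23.3, 27.7 and 34.9 CPM in controls and at 11.6, 15.1, 17.5 and 16.5 CPM in mutants (log2 change -0.89, adjusted p = 0.0246). En1, which patterns the midbrain and cerebellum, was at 13.1, 11.5, 9.86 and 12.8 CPM and at 7.78, 8.33, 8.18 and 7.82 CPM (log2 change -0.56, adjusted p = 0.0396). Nhlh1 lost its call without control 1, control 3, control 4, mutant 2 or mutant 4 (adjusted p up to 0.0759). En1 kept its call only without control 3 (adjusted p up to 0.142 in the other fits). Barhl1, at a mean of 65.3 CPM in controls and 44.7 CPM in mutants, missed the threshold (adjusted p = 0.0909), as did Pax6 at 199 and 173 CPM (adjusted p = 0.295).

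**Figure D2:**
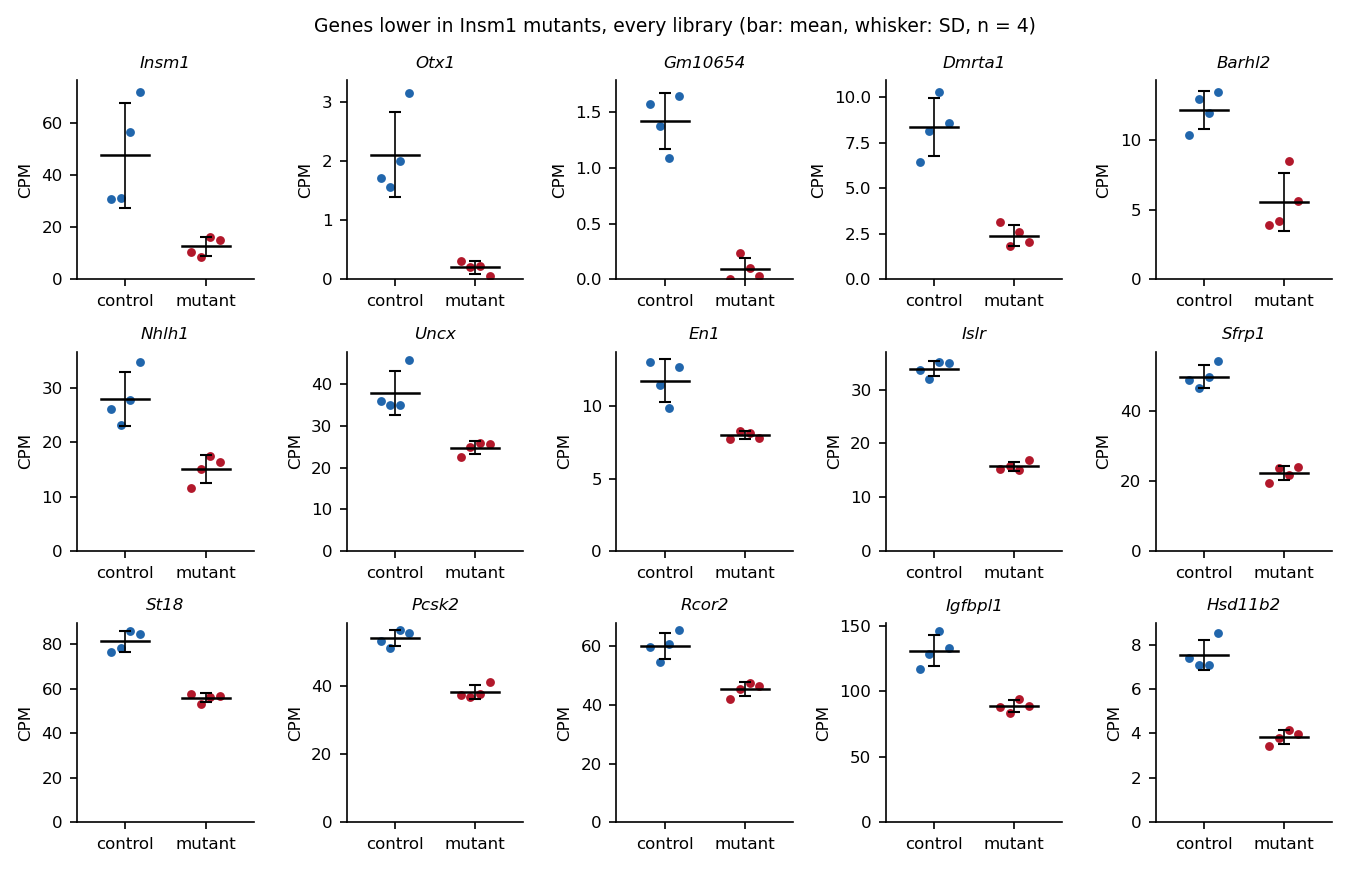
Levels of 15 genes called lower in Insm1 mutants, in CPM on linear axes from 0. Points are the 4 control and 4 mutant libraries, bars the means and whiskers the SD, and in every panel all mutants lie below all controls.

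Of the granule neuron differentiation genes, 3 of 44 were called (0.689% over all genes): Uncx was lower, and Grin2c and Calb2 were higher. An unadjusted p under 0.05 was found for 15 of the 44 (9% over all genes). Uncx, a homeobox gene, was at 36.0, 35.04, 35.02 and 45.8 CPM in controls and at 22.5, 24.9, 25.9 and 25.7 CPM in mutants. Control 4 was the highest of the 8, and no mutant reached a control. Its log2 change was -0.62 ± 0.10 (SE, adjusted p = 0.0187), lost without control 1, mutant 2, mutant 3 or mutant 4 (adjusted p up to 0.065).

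Grin2c encodes an NMDA receptor subunit of mature granule neurons, and Calb2 encodes calretinin, a calcium-binding protein of granule neurons and unipolar brush cells. Grin2c was at 3.45, 4.73, 3.31 and 3.99 CPM in controls and at 6.90, 8.63, 7.41 and 6.42 CPM in mutants (log2 change 0.92 ± 0.14, SE, adjusted p = 0.0175). Calb2 was at 16.8, 18.2, 18.5 and 18.8 CPM against 23.9, 25.1, 22.8 and 23.3 CPM (log2 change 0.40 ± 0.07, SE, adjusted p = 0.0246). Calb2 was called only without mutant 1 among the 8 fits (adjusted p up to 0.093 in the others), and Grin2c was not called without control 1, control 3, control 4, mutant 2 or mutant 3 (adjusted p up to 0.0724).

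Of the 41 genes that fell, 3 are neighbours on chromosome 9. They are the long non-coding RNA gene Gm17322 (58005812 to 58006400, GRCm38.p6), Stra6 (58063793 to 58154004), a membrane receptor for retinol uptake, and Islr (58156246 to 58159236), which encodes a secreted leucine-rich repeat protein. This group was picked out after the values were seen. Islr was at 33.6, 32.0, 35.1 and 34.9 CPM in controls and at 15.2, 15.8, 14.99 and 16.9 CPM in mutants. The groups were tight and far apart, and the log2 change of -1.11 ± 0.07 (SE) had the smallest adjusted p of all genes tested (0.000196). Gm17322 was at 6.67, 6.48, 11.2 and 10.5 CPM against 3.44, 3.02, 3.32 and 3.86 CPM (log2 change -1.35 ± 0.20, SE, adjusted p = 0.0122). Stra6 was at 5.89, 3.01, 3.34 and 4.49 CPM against 1.57, 1.67, 1.91 and 2.17 CPM (log2 change -1.20 ± 0.22, SE, adjusted p = 0.0457). Islr and Gm17322 were called without any single library, but Stra6 only without control 2 (adjusted p up to 0.134 in the other fits). Gm17322 lies within the coordinates of Cyp11a1, and Stra6 overlaps Ccdc33. Whether the authors' counting used the strand is not given in the sources used here, so reads of such overlapping genes may not be told apart.

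None of the other tested genes within 200000 bases of this group was called. Islr2, next to Islr, had a mean of 469 CPM in controls and 329 CPM in mutants (log2 change -0.51, adjusted p = 0.107). Sema7a had means of 81.2 and 54.3 CPM (log2 change -0.58, adjusted p = 0.115) and Cyp11a1 means of 1.37 and 0.768 CPM (log2 change -0.82, adjusted p = 0.341). Loxl1 had means of 16.3 and 13.4 CPM (log2 change -0.28, adjusted p = 0.161). In these 4 every mutant was below every control (3.02% over all genes). Ccdc33 had a log2 change of -0.02, and Stoml1 one of 0.005. The groups overlapped for both, and also for Arid3b, Ubl7, 1600029O15Rik and Pml (log2 changes -0.311, -0.065, -0.278 and -0.215).

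The sequences before the starts of 5 called genes are shown because the same short motif, CAGCTG, occurs before falling and rising genes alike. This is the E-box core that myogenic and other bHLH factors bind, and CATTCC is the MCAT element that TEAD factors bind. Each sequence is the 250 bases before a start in the RefSeq table (GRCm38.p6), on the strand of the gene, with CAGCTG and CATTCC on either strand in capitals.
Islr, chr9:58158555-58158804, minus strand: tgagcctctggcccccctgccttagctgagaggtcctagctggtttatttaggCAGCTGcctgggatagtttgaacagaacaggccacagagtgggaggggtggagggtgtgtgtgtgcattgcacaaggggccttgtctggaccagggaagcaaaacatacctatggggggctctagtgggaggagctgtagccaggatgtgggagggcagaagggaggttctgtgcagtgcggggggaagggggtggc
Dmrta1, chr4:89687948-89688197, plus strand: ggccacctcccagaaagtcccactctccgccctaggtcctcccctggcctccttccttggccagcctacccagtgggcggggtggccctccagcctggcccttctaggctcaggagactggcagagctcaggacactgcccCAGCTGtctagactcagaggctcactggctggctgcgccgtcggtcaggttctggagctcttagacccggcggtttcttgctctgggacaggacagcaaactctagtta
Gm10654, chr8:70931065-70931314, plus strand: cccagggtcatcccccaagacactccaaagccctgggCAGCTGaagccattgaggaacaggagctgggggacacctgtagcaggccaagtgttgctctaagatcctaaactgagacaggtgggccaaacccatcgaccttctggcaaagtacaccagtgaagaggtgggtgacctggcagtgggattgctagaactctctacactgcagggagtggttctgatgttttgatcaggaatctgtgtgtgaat
Jag1, chr2:137116521-137116770, minus strand: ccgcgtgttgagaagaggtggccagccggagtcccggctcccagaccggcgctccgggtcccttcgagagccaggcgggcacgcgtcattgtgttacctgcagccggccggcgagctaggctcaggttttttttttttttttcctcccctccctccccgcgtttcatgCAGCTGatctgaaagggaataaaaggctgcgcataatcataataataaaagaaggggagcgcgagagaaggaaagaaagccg
Myl1, chr1:66945057-66945306, minus strand: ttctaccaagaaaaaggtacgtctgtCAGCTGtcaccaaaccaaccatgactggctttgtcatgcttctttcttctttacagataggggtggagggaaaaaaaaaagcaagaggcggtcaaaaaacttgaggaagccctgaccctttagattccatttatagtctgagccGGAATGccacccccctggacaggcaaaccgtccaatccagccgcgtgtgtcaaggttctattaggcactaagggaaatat
In Islr the motif CAGCTG begins 197 bases before the start, in Dmrta1 109, in Gm10654 213, in Jag1 82 and in Myl1 224. Myl1 also holds CATTCC on the opposite strand. The start used for Islr lies inside the span given for that gene above, so its window overlaps the gene.

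Promoter windows of 300 bases (250 before and 50 after a start) were found for 67 of the 94 higher and 26 of the 41 lower genes. CAGCTG was present for 23 of the 67 (34.3%) and for 10 of the 26 (38.5%), against 18.3% of the 12325 tested genes with a window. CATTCC, on either strand, was present for 16 of the 67 (23.9%) and 2 of the 26 (7.69%), against 14.6%. A gene counted if any of its windows held the letters, and a match is a description of the sequence only.

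Among signalling pathways the calls were few and mostly single genes. In the Wnt list 1 of 60 genes was called: Sfrp1, a secreted antagonist that binds Wnt proteins. Sfrp1 was at 49.0, 46.5, 49.9 and 54.3 CPM in controls and at 19.6, 23.7, 21.8 and 23.9 CPM in mutants. Its 4 mutant values lay well under the lowest control, with a log2 change of -1.17 ± 0.08 (SE, adjusted p = 0.000269), called without any single library. The other 10 tested secreted antagonists and all 13 ligands were not called. Of the 14 transducers and targets of the list, 13 had changes below 0 (median -0.21), and none of them was called. Over the 60 Wnt genes 11 had an unadjusted p under 0.05 (9% over all genes).

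In the Notch list Jag1 rose and Mfng fell, out of 32 genes, of which 9 had an unadjusted p under 0.05 (9% over all genes). Jag1 encodes a ligand, and Mfng encodes a glycosyltransferase that modifies Notch receptors and so their response to ligands. Jag1 was at 17.3, 16.1, 16.6 and 19 CPM in controls and at 23.8, 29.0, 33.5 and 33.5 CPM in mutants (log2 change 0.80 ± 0.11, SE, adjusted p = 0.0103). Mutant 1 was the lowest mutant, and the call missed the threshold only without control 1 (adjusted p = 0.0504). Mfng was at 12.8, 13.99, 15.5 and 13.7 CPM against 10.0, 8.13, 8.15 and 6.71 CPM (log2 change -0.76 ± 0.12, SE, adjusted p = 0.0197). It was called only without mutant 1 (adjusted p up to 0.0682 in the other fits), and with a sex term its adjusted p was 0.135. Hey1, a target gene, had means of 56.7 and 36.5 CPM and was not called (adjusted p = 0.0661).

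The Sonic hedgehog list, which includes the main mitogen pathway of granule progenitors, had 0 of 29 genes called by edgeR, and 7 had an unadjusted p under 0.05 (9% over all genes). By DESeq2 3 were lower and 2 higher. The changes were small: 23 of 29 were below 0, with a median of -0.13, and all 11 transducers were below 0 (median -0.17). Gli1, the target gene read most often as a measure of the pathway, was at 41.7, 35.7, 36.5 and 43.7 CPM in controls and at 27.8, 29.99, 32.0 and 31.7 CPM in mutants. No mutant overlapped a control, but the log2 change of -0.38 ± 0.08 (SE) had an adjusted p of 0.094. Ccnd1 had a mean of 164 CPM in controls and 199 CPM in mutants, and Ccnd2 441 and 333 CPM; neither was called (adjusted p = 0.168 and 0.301).

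BMP, TGF-beta and FGF genes gave no call by edgeR with all libraries: 0 of 50, with 10 at an unadjusted p under 0.05, and 0 of 32, with 6 (9% over all genes). DESeq2 called 3 and 1, and edgeR without control 3 called 1 BMP or TGF-beta gene lower. Fst, which encodes the activin antagonist follistatin, came nearest. It was at 2.63, 3.36, 3.16 and 2.82 CPM in controls and at 5.59, 4.26, 4.90 and 4.53 CPM in mutants (log2 change 0.69 ± 0.13, SE, adjusted p = 0.051). In the retinoid list Stra6 was the 1 gene called of 20. In the Hippo list Tead4, a TEAD factor, was the 1 gene called of 27. It was at 1.14, 1.10, 1.18 and 0.809 CPM in controls and at 1.99, 2.26, 2.25 and 2.40 CPM in mutants (log2 change 1.06 ± 0.17, SE, adjusted p = 0.018). Without control 1, 2 or 4 or mutant 2, 3 or 4 the call of Tead4 was lost (adjusted p up to 0.0753).

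Among the corepressor genes a CoREST subunit and a zinc-finger repressor fell. Of 21 tested genes of LSD1-CoREST and of related fate repressors, 3 were called lower (Insm1, St18 and Rcor2), and 7 had every mutant below every control (3.02% over all genes). An unadjusted p under 0.05 was found for 10 of the 21 (9% over all genes). Insm1, the deleted gene, is counted in each of these numbers, and the list was chosen with earlier results of these data known. St18, a zinc-finger repressor of the Myt1 family, was at 76.6, 78.2, 86.2 and 84.8 CPM in controls and at 57.6, 53.3, 56.4 and 56.9 CPM in mutants. Its mutants lay close together, with a log2 change of -0.54 ± 0.06 (SE, adjusted p = 0.00348), called without any single library. Rcor2, a CoREST subunit of neural progenitors, was at 59.5, 54.4, 60.6 and 65.3 CPM against 42.1, 45.5, 47.4 and 46.4 CPM (log2 change -0.40 ± 0.07, SE, adjusted p = 0.0325). It was called only without control 2 or mutant 1 (adjusted p up to 0.107 in the other fits). Kdm1a, which encodes LSD1, had means of 126 and 115 CPM (adjusted p = 0.533), and Rest, a repressor of neuronal genes, had means of 33.0 and 41.5 CPM (adjusted p = 0.0635).

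Pcsk2 was the only call among 27 neuroendocrine secretion genes. It encodes a convertase that cuts prohormones, and was at 53.2, 51.2, 56.3 and 55.4 CPM in controls and at 37.5, 36.8, 37.6 and 41.3 CPM in mutants. The log2 change was -0.50 ± 0.06 (SE, adjusted p = 0.00553), called without any single library. The other 26 genes were not called, and the list's median was 0.09. An unadjusted p under 0.05 was found for 7 of the 27 (9% over all genes). Of the 14 tested peptide genes 11 were above 0 (median 0.22).

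In the lists of broad neuronal programmes edgeR called single genes or none. Of 72 axon guidance genes 0 were called by edgeR, with 14 at an unadjusted p under 0.05 (9% over all genes), while DESeq2 called 5 lower and 2 higher. Without mutant 1 edgeR called 2 higher and 2 lower, with Unc5b among the higher (adjusted p = 0.0155). Unc5b, a netrin receptor, was at 38.2, 32.1, 30.1 and 32.8 CPM in controls and at 40.0, 46.3, 48.5 and 53.6 CPM in mutants (log2 change 0.50 ± 0.10, SE, adjusted p = 0.0658). The netrin receptor Dcc had means of 221 and 160 CPM (adjusted p = 0.0714) and the ligand gene Ntn1 means of 49.2 and 34.7 CPM (adjusted p = 0.0909), each with every mutant below every control. That held for 8 of the 72 axon guidance genes (3.02% over all genes), and 3 had every mutant above (3.16%). Of 70 voltage-gated and potassium channel genes 0 were called, with 12 at an unadjusted p under 0.05 and 2 called by DESeq2. Without mutant 1 edgeR called 1 of them higher, Kcnn1 (adjusted p = 0.0441). Kcnh3, a potassium channel gene outside that list and added after its values were seen, was called higher (log2 change 1.01, adjusted p = 0.0201). Kcnh3 lost its call without control 2, 3 or 4 or mutant 2 or 4 (adjusted p up to 0.0754). Of 49 neurotransmitter receptor genes only Grin2c was called. In 8 of the 49 every mutant lay above every control (3.16% over all genes) and in 2 below (3.02%). An unadjusted p under 0.05 was found for 11, and DESeq2 called 3 higher and 1 lower. Of the 19 GABA and glycine receptor genes 16 were above 0 (median 0.13), and 5 had every mutant above every control.

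**Figure D3:**
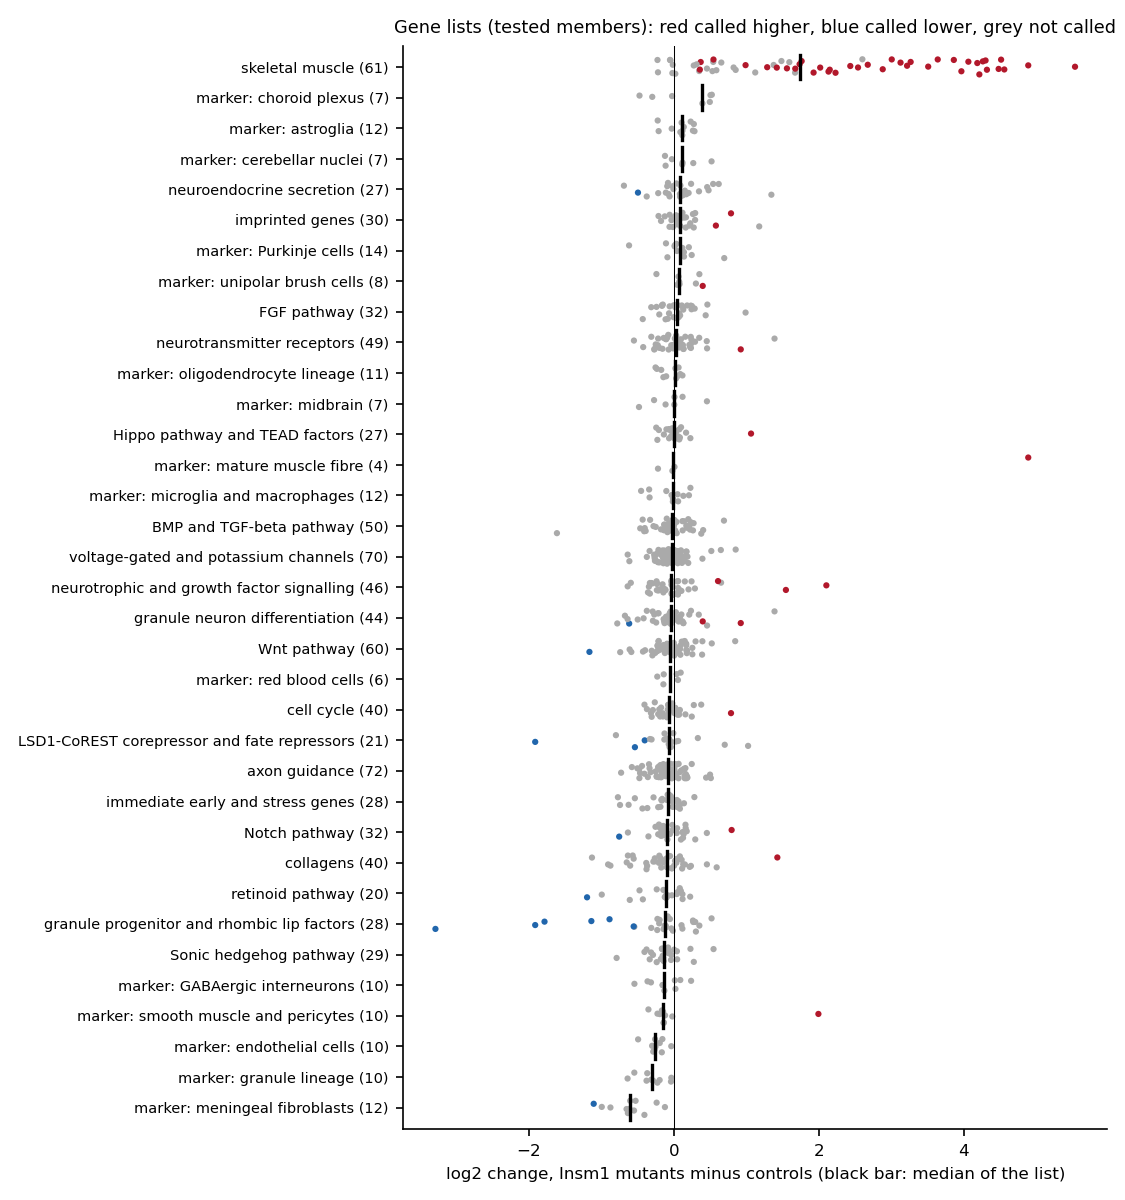
Each row is a gene list with the number of tested members, each point a gene's log2 change in Insm1 mutants, coloured red where called higher, blue where called lower and grey where not called, and the black bar is the list's median. The muscle list lies furthest to the right, the 12 meningeal fibroblast markers furthest to the left, and most signalling and neuronal lists have medians near 0.

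Secreted factors and a growth factor receptor were among the rises outside the muscle list. Of 46 neurotrophic and growth factor genes, Gdnf, Ntf3 and Erbb3 were called higher and 0 lower (0.48% and 0.209% over all genes), with a list median of -0.03. Gdnf, the ligand of the Ret receptor complex, was at 0.193, 0.592, 0.304 and 0.300 CPM in controls and at 1.79, 1.47, 1.31 and 1.41 CPM in mutants. The lowest mutant was above the highest control, with a log2 change of 2.10 ± 0.30 (SE, adjusted p = 0.00964), called without any single library. Gdnf had 50 counts over all 4 controls and passed the count filter only through the mutants, so the size of its rise is not well measured. Ntf3, which encodes neurotrophin-3, was at 10.1, 9.55, 9.01 and 9.29 CPM against 16.9, 13.4, 13.6 and 13.9 CPM (log2 change 0.61 ± 0.09, SE, adjusted p = 0.0171). Ntf3 was not called without control 2, control 3, control 4 or mutant 4 (adjusted p up to 0.0657).

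Erbb3, a neuregulin receptor, was at 0.556, 0.619, 0.395 and 1.05 CPM in controls and at 1.89, 2.05, 1.68 and 2.01 CPM in mutants (log2 change 1.55 ± 0.26, SE, adjusted p = 0.0246). Control 4 was the highest control, and the call was held only without control 4 or mutant 1 (adjusted p up to 0.1 in the other fits). Clcf1, a cytokine gene outside the list and added here after its values were seen, was at 1.304, 1.10, 0.819 and 1.44 CPM against 3.29, 4.52, 3.15 and 3.29 CPM (log2 change 1.61, adjusted p = 0.00553).

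Col9a1, a collagen of cartilage, was at 6.09, 5.84, 5.25 and 4.67 CPM in controls and at 16.5, 14.6, 13.3 and 14.5 CPM in mutants. The groups were separated by more than the whole range of either, with a log2 change of 1.43 ± 0.11 (SE, adjusted p = 0.000416), called without any single library. It was the 1 gene called of 40 collagen genes, whose median was -0.10.

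Cdkn1c and Mest are imprinted genes, expressed from a single parental copy. Cdkn1c encodes the cell cycle inhibitor p57 and was at 98.2, 92.5, 96.1 and 72.7 CPM in controls and at 174.7, 143.9, 144.9 and 156.9 CPM in mutants (log2 change 0.79 ± 0.10, SE, adjusted p = 0.00733). The lowest mutant lay well above the highest control, and the call held without any single library. Mest was at 80.1, 75.4, 65.3 and 78.4 CPM against 107.8, 123.4, 98.4 and 117.4 CPM (log2 change 0.58 ± 0.09, SE, adjusted p = 0.018), with the call lost without control 2, control 3, control 4, mutant 2 or mutant 4 (adjusted p up to 0.0753). These were the 2 calls among 30 imprinted genes, of which 23 were above 0 (median 0.08). Cdkn1c was also the 1 call among 40 cell cycle genes. Of these, 26 are proliferation genes, and 5 of the 26 had every mutant below every control (3.02% over all genes) and 9 an unadjusted p under 0.05 (9% over all genes). Their summed level was 3065 to 3205 CPM in controls and 2782 to 2947 CPM in mutants, with a median log2 change of -0.09.

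**Figure D4:**
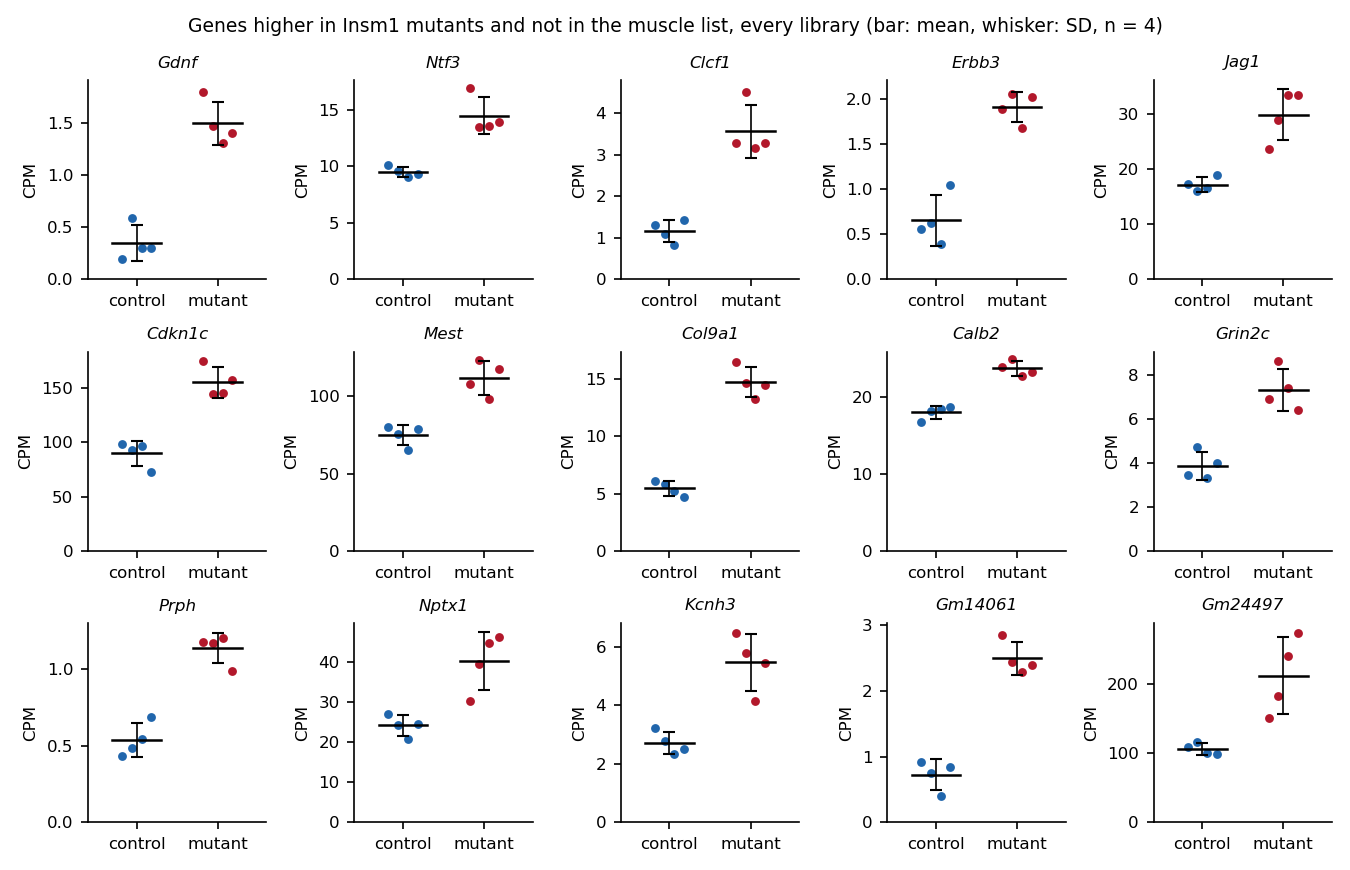
Levels of 15 genes called higher in Insm1 mutants that are not in the muscle list, in CPM on linear axes from 0. Points are libraries, bars means and whiskers the SD (n = 4), and in every panel all mutants lie above all controls, from Gdnf (1.31 to 1.79 CPM in mutants) to Cdkn1c (143.9 to 174.7 CPM).

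Genes of the skeletal muscle list gave 38 of the 94 rises. Of its 78 genes with counts, 61 passed the count filter, and of these 38 were called higher and 0 lower. Among those that passed only through the mutants, Lmod3 had 1 count over all 4 controls, Ckm 3, Myoz2 4, Mybph 8 and Mymk and Cav3 10 each. Tnnc2 had 11, Sln 14, Myom2 20, Chrna1 21, Tnni2 26, Myl1 31, Tnnt2 and Klhl31 37 each, Mylpf 43 and Tnni1 62. Myog had 169 and passed in the same way. These counts of calls are therefore a description and not a measure of how much of the list rose. Among the called were Mymk, Mymx and Cdh15, which act in myoblast fusion and adhesion, Jsrp1 of the sarcoplasmic reticulum, 27 of the 34 sarcomere genes that passed, and the transcription factors Myog and Mef2c. The summed level of the list was 259.5 to 290.1 CPM in controls and 469.6 to 633.5 CPM in mutants. Without single libraries 20 to 36 of these genes were called higher, and 0 lower.

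Cdh15, which encodes M-cadherin of muscle precursors, was at 1.69, 1.43, 0.910 and 1.019 CPM in controls and at 7.02, 5.72, 6.14 and 8.72 CPM in mutants (log2 change 2.43 ± 0.21, SE, adjusted p = 0.000779). Myog, the factor that drives terminal muscle differentiation, was at 0.483, 3.93, 0 and 0.0899 CPM against 35.1, 26.6, 18.9 and 24.9 CPM (log2 change 4.52 ± 0.75, SE, adjusted p = 0.0246). Control 2 stood above the other controls for Myog, and without it the log2 change was 6.94 (adjusted p = 0.000666). Myog passed the count filter only through the mutants, so the size of its rise is not well measured. The call held only without control 2, control 3 or mutant 1 (adjusted p up to 0.1 in the other fits), and DESeq2 did not call the gene (adjusted p = 0.0699).

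Sarcomere genes rose steeply as well. Myh3, the embryonic myosin heavy chain, was at 1.84, 4.20, 1.52 and 1.59 CPM in controls and at 50.8, 49.1, 24.2 and 46.8 CPM in mutants (log2 change 4.22 ± 0.35, SE, adjusted p = 0.000669). Ttn, titin, was at 14.4, 20.1, 12.5 and 15.04 CPM against 87.9, 93.7, 67.1 and 112.2 CPM (log2 change 2.54 ± 0.18, SE, adjusted p = 0.000269). Actc1, Tnni1, Mylpf, Tnnt2, Myl1, Klhl31, Klhl41 and Mymx completed the 12 largest rises among those averaging 1 CPM or more over the 8 libraries, with log2 changes from 2.67 to 4.32. Of these, Tnni1, Mylpf, Tnnt2, Myl1 and Klhl31 passed the count filter only through the mutants, so the size of their rises is not well measured. Tnni1 and Myl1 were not called without control 1 (adjusted p = 0.0585 and 0.0504). Control 2 was the highest control for Actc1 and Tnni1 too, at 5.41 and 1.29 CPM. Without it the log2 change of Tnni1 was 5.99, that of Actc1 5.49, that of Myl1 5.18 and that of Tnnt2 4.92, against 4.30, 4.26, 3.86 and 3.97 with it.

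Of 11 markers of mature muscle fibres only 4 passed the count filter, 2 with changes above 0 and 2 below, and Ckm was the 1 called. Ckm, muscle creatine kinase, was at 0, 0.0269, 0.0303 and 0.03 CPM in controls and at 1.33, 0.558, 0.436 and 0.479 CPM in mutants (adjusted p = 0.00788). It passed the filter only through the mutants, and with 3 counts in the controls the size of its rise is not well measured. Acta2, the smooth muscle actin that is also made in embryonic skeletal muscle, rose (log2 change 1.99 ± 0.25, SE, adjusted p = 0.00553) while the 9 other tested smooth muscle and pericyte markers were below 0 and not called. With a sex term, which leaves mutants 1 and 2 to set the change, the median of that list, Acta2 included, was 0.04, against -0.15 without the term.

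Non-coding genes made up 11 of the 135 calls, and most were long non-coding RNAs. By biotype 5 long non-coding RNA genes were higher and 3 lower of 1774 tested (0.451%), 1 of 40 small nuclear RNA genes was higher, and 2 of 1664 genes of the TEC class, transcripts that the annotation lists as awaiting experiments, were lower. Among protein-coding genes 87 were higher and 36 lower of 14800 (0.831%). The remaining call was the pseudogene 4930432E11Rik, of 1179 pseudogenes tested.

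Gm10654, a TEC gene on chromosome 8 (70931315 to 70933037, GRCm38.p6), had the largest fall of all called genes. It was at 1.57, 1.37, 1.09 and 1.65 CPM in controls and at 0, 0.235, 0.101 and 0.0319 CPM in mutants. The highest mutant was far below the lowest control, with a log2 change of -3.95 ± 0.51 (SE, adjusted p = 0.00634). Gm10654 passed the count filter only through the controls, so the size of its fall and its rank are not well measured. It was called without any single library, with a log2 change of -5.05 without mutant 2, but with a sex term its adjusted p was 0.0664. Gm45577, also TEC, was at 0.725, 1.022, 0.789 and 0.869 CPM against 0.245, 0.0587, 0.268 and 0.319 CPM (log2 change -1.93 ± 0.34, SE, adjusted p = 0.037). It was called only without mutant 2 (adjusted p up to 0.117 in the other fits). Gm45577 too passed the count filter only through the controls.

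Gm28653, a long non-coding RNA gene, had the smallest adjusted p of the non-coding rises. It was at 3.07, 4.01, 2.25 and 2.97 CPM in controls and at 17.8, 14.6, 10.7 and 14.2 CPM in mutants (log2 change 2.22 ± 0.19, SE, adjusted p = 0.00074). Gm14061 was at 0.918, 0.753, 0.395 and 0.839 CPM against 2.85, 2.44, 2.28 and 2.40 CPM (log2 change 1.76 ± 0.23, SE, adjusted p = 0.00634). Both were called without any single library.

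Gm29773 and B020018J22Rik also rose, from low levels. Gm29773, which starts at the base after the end of the skeletal actin gene Acta1 on chromosome 8, had means of 0.0976 and 0.460 CPM (log2 change 2.23 ± 0.34, SE, adjusted p = 0.0171). How the authors' counting divided reads between these neighbours is not given in the sources used here. B020018J22Rik had means of 0.0554 and 0.532 CPM (log2 change 3.19 ± 0.53, SE, adjusted p = 0.0246). The first lost its call without control 1, 2 or 3 (adjusted p up to 0.0767), and the second without control 1, 3 or 4 or mutant 2 or 4 (up to 0.104). Over all 4 controls Gm29773 had 14 counts and B020018J22Rik 8. Both passed the filter only through the mutants, so the size of their rises is not well measured.

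Beside Gm17322, the long non-coding RNA genes that fell were C230057A21Rik and Gm28703. C230057A21Rik was at 1.52, 2.04, 2.94 and 2.55 CPM in controls and at 0.785, 0.558, 1.04 and 0.735 CPM in mutants (log2 change -1.53 ± 0.26, SE, adjusted p = 0.0246), lost without control 2, 3 or 4 or mutant 2 or 4 (adjusted p up to 0.0998). Gm28703 was at 2.03, 2.15, 2.12 and 2.55 CPM against 0.810, 0.822, 0.771 and 0.990 CPM (log2 change -1.38 ± 0.16, SE, adjusted p = 0.00367), called without any single library.

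Gm24497, a small nuclear RNA gene on chromosome 1, was at 108.8, 116.4, 99.99 and 99.3 CPM in controls and at 150.5, 182.3, 241.4 and 274.0 CPM in mutants. The mutants with a Y chromosome, 3 and 4, were the highest. The log2 change was 1.00 ± 0.16 (SE, adjusted p = 0.0244). It was called only without mutant 1 or mutant 2 (adjusted p up to 0.0925 in the other fits), and with a sex term its log2 change was 0.65 (adjusted p = 0.0457).

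The shares of counts taken by the biotypes did not pass a test in any of 11 biotypes (two-sided exact permutation test over 4 against 4 libraries, for which the smallest p possible is 0.0286). Protein-coding genes held 75.9% ± 1.45 (SD, n = 4) of the counts in controls and 74.6% ± 1.78 in mutants (exact p = 0.343). Long non-coding RNAs held 2.78% ± 0.268 and 2.62% ± 0.254 (exact p = 0.429), and small nuclear RNAs 0.405% ± 0.0506 and 0.502% ± 0.0938 (exact p = 0.171). The adjusted p was at least 0.524 for all 11. With 4 libraries per group a change in a single biotype could not pass after adjustment, whatever its size. Miscellaneous RNAs, mainly 7SK and 7SL, ranged from 11.4% to 16.1% in controls and from 12.8% to 18.2% in mutants.

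Further falls were in genes outside these lists. Hsd11b2, which inactivates glucocorticoids in granule progenitors, was at 7.42, 7.10, 7.10 and 8.54 CPM in controls and at 3.44, 3.81, 4.16 and 3.96 CPM in mutants (log2 change -0.97 ± 0.11, SE, adjusted p = 0.00289), called without any single library. Vipr1, a receptor for vasoactive intestinal peptide, was at 5.65, 5.38, 6.89 and 7.19 CPM against 3.36, 2.47, 3.39 and 3.70 CPM (log2 change -0.96 ± 0.15, SE, adjusted p = 0.0201). Vipr1 lost its call without control 1, control 3, control 4 or mutant 3 (adjusted p up to 0.071). Further falls that were called without any single library, listed after their values were seen, were Plekho2 (log2 change -0.87), Fibcd1 (-0.85), Slc29a1 (-0.67), Igfbpl1 (-0.57), Clmp (-0.48) and Crybg3 (-0.45).

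Markers of the cell types that the tissue could hold were read as whole lists. All 10 granule lineage markers were below 0 (median -0.30), 5 of them with every mutant below every control (3.02% over all genes), and 0 were called by edgeR, with 7 at an unadjusted p under 0.05 (9% over all genes) and 5 called by DESeq2. Their summed level was 1560 to 1696 CPM in controls and 1372 to 1537 CPM in mutants, so the groups did not overlap. Mfap4 came nearest to the threshold (log2 change -0.37 ± 0.07, SE, adjusted p = 0.0624). Their part in the falls above was not tested.

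Meningeal fibroblast markers were all below 0 as well, in 12 of 12 tested genes (median -0.61), with Islr the 1 call. The median was -0.36 without control 1, -0.92 without mutant 2 and -0.32 with a sex term, where mutants 1 and 2 set the change. Their summed level was 328.3, 204.8, 182.6 and 228.9 CPM in controls and 144.5, 218.0, 126.0 and 125.0 CPM in mutants. Control 1 was the highest, and mutant 2 overlapped the controls. For Islr itself the 4 controls lay between 32.0 and 35.1 CPM. The 10 endothelial markers were below 0 (median -0.26) and 0 were called by edgeR, with 3 at an unadjusted p under 0.05 and 0 called by DESeq2. With a sex term, and so from mutants 1 and 2, their median was -0.05. The summed endothelial level was 250.2 to 272.8 CPM in controls and 187.5 to 246.2 CPM in mutants. The part of both lists in the falls above was not tested.

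Astroglial markers had a median of 0.12 and Purkinje cell markers one of 0.08, with 0 of 12 and 0 of 14 called by edgeR, and 1 and 2 at an unadjusted p under 0.05 and none called by DESeq2. Red blood cell markers had a median of -0.05, and Hbb-bt was highest in control 2, at 20.3 CPM. None of 15 Hox genes of the hindbrain passed the count filter, with at most 11 counts in any library. Their summed level was 0.217 to 0.726 CPM in controls and 1.15 to 1.38 CPM in mutants. These sums rest on few counts.

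The genes called here were then read in the second deletion, which shares no library with this one. In both deletions only the mutants carried Atoh1Cre, so a change shared by both cannot be told apart from an effect of Cre itself. The library labelled Tead1/2 mutant 4 lacked the Myog rise of the other 3. Of the targeted genes, Tead2 was at 25.7 CPM in it, against 22.3 to 25.6 CPM in the controls and 17.3 to 19.4 CPM in the other mutants. Tead1 was at 42.7 CPM in it, against 34.6 to 53.7 CPM and 36.8 to 49.9 CPM, so it did not separate the groups. The library was left out in part of what follows after its values were seen, and whether it carries the right label is not known. The missing Myog rise was among those values, so counts of muscle rises without mutant 4 partly follow from that choice. With all 7 libraries edgeR called 0 of 20247 genes (0%), and 4052 had an unadjusted p under 0.05. DESeq2 called 955 (4.72%). Without that 1 library, mutant 4, edgeR called 646 of 20234 (3.19%), of which 246 were lower in mutants (1.22%). Of the 41 genes lower in Insm1 mutants, 39 were below 0 in Tead1/2 mutants, with and without mutant 4, against 51.8% and 51.7% of all genes. Without mutant 4, 27 of the 41 were called lower there and 1, Insm1, was called higher. Of the 92 higher genes tested there, 86 were above 0 with all 7 libraries and without mutant 4, with 0 called by edgeR in the first case and 71 in the second. Without mutant 4, of the 56 outside the muscle list 50 were above 0 and 41 were called higher, among them the striated muscle genes Trim55, Hspb2, Hrc, Synpo2l and Tpm2, and all 36 tested muscle genes were above 0, with 30 called.

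**Figure D5:**
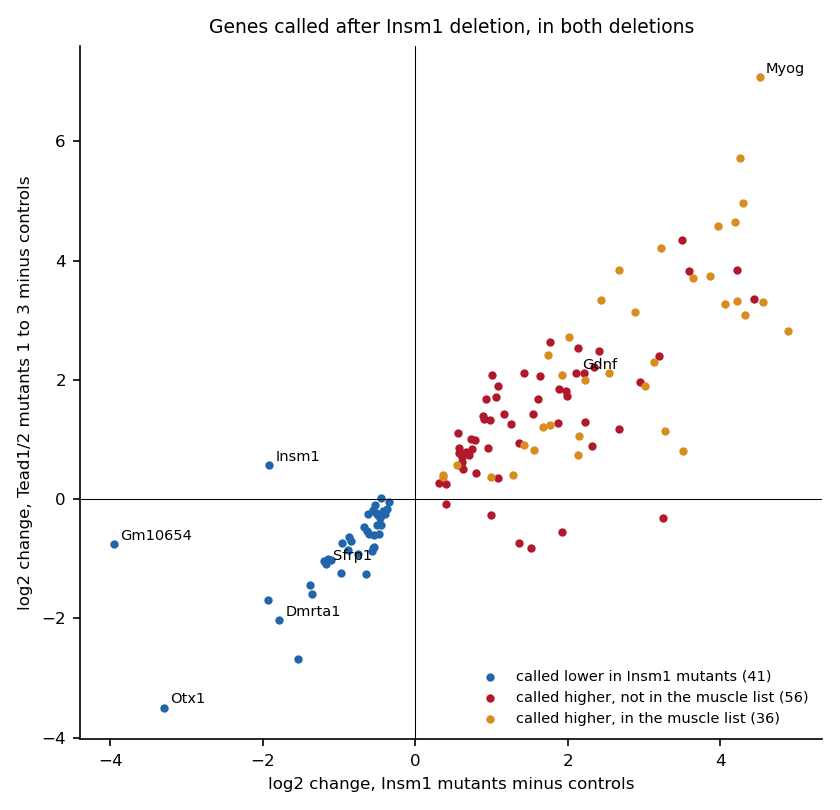
Log2 changes of the genes called after Insm1 deletion (horizontal) and after Tead1/2 deletion without mutant 4 (vertical), for the 41 lower and the 92 higher genes tested in both. Most points have the same sign on both axes, and Insm1 is the labelled gene on opposite sides of 0.

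In Tead1/2 mutants without mutant 4, Otx1 had a log2 change of -3.49 (adjusted p = 0.0187), against -2.20 with all 7 libraries (adjusted p = 0.161). For Dmrta1 the values were -2.03 (adjusted p = 0.00124) and -1.27 (adjusted p = 0.178). For Sfrp1 they were -1.08 (adjusted p = 0.000375) and -0.73 (adjusted p = 0.162), and the adjusted p of Islr was 0.00148 without the library and 0.211 with it. Gdnf was at 2.12 (adjusted p = 0.00252) without mutant 4 and 1.81 (adjusted p = 0.122) with it, and Col9a1 at 2.11 (adjusted p = 4.64e-06) and 1.84 (adjusted p = 0.0898). Insm1 itself was at 0.58 (adjusted p = 0.00235) and 0.49 (adjusted p = 0.0898). Gm10654 was at -0.76 (adjusted p = 0.105) and -0.66 (adjusted p = 0.148), not called either way, against -3.95 in Insm1 mutants.

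The difference between both effects was tested directly over all 15 libraries, and edgeR called 0 of 20837 genes, while 1435 (6.89%) had an unadjusted p under 0.05. By DESeq2 17 genes were called, among them Insm1 and Gm10654. Insm1 had the smallest unadjusted p (6.26e-06, adjusted p = 0.131, difference -2.41), followed by Gm10654 (adjusted p = 0.339, difference -3.31). Without single libraries 0 to 8 genes were called. Insm1 was the 1 gene called without Insm1 control 1 or control 2, Gm6969 without Insm1 control 4 and Gm10654 without Insm1 mutant 2. The 8 called without Tead1/2 control 2 included neither. Calb2 (0.40 here and -0.07 in Tead1/2 mutants 1 to 3, or -0.05 with mutant 4) had an adjusted p of 0.449 for the difference.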

How the data were processed

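Total RNA from 8 cerebella was sequenced, and gene-level expected counts from RSEM were deposited by the authors. The submitters' processing notes name RSEM 1.3.3, STAR 2.7.9a, Trim Galore 0.4.4 and 0.6.3, and the builds GRCm38.p6 and mm10, without their roles. Library columns were matched to samples by the labels' descriptions, since the deposited count tables carry each other's names. Between 6.85% and 8.11% of values per library were not whole, and counts were rounded. The 92 spike-in entries (0 counts) were left out.

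Genes passing filterByExpr were tested with edgeR 4.0.16 (R 4.3.3; TMM scaling, quasi-likelihood test, Benjamini-Hochberg adjustment, threshold 0.05), mutants against controls. CPM are scaled by TMM. DESeq2 1.42.0 was an alternative. On simulated counts for this comparison (19386 genes), edgeR recovered 87 of 100 genes changed by a log2 of 1 and 100 of 100 changed by 2, and called 7 of 19186 unchanged genes. The changed genes were drawn from those with a mean of at least 1 CPM. The simulated libraries carried no sex difference and no shared differences between libraries, so these rates need not hold for the real ones. The labels say that each library came from its own pup.

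The members and gene lists were chosen with earlier results of these data known. Genes were named by rule: Insm1, the 12 largest called rises and falls whose groups do not overlap and whose mean reaches 1 CPM, up to 5 called non-coding genes in each direction, and up to 3 called genes per list, or the 1 with the smallest p. Other names are added where a result turns on them, chosen after their values were seen. Replicate numbers give no pairing in the labels. Alternatives were other scalings and filters, a replicate block, a sex term, the Xist libraries, all 15 libraries and each library left out.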

Additional observations from a re-analysis of the deposited data

Results flagged for a closer look

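Of 130 groups of 4 libraries (65 named genes in controls and in mutants), 13 held a library far from the other 3, where chance gives about 1 in 20. Control 2 stood above the other controls for Myog (3.93 CPM, next 0.483), Actc1 (5.41 CPM, next 1.26), Myh3 (4.2 CPM, next 1.84), Tnni1 (1.29 CPM, next 0.217) and Hbb-bt (20.3 CPM, next 12.7). Mutant 1 stood above the other mutants for Ckm (1.33 CPM, next 0.558) and Ntf3 (16.9 CPM, next 13.9), and below them for Lhx1 (19.7 CPM, next 34.2) and Kcnn1 (8.59 CPM, next 9.99). Mutant 3 was low for Myh3 (24.2 CPM, next 46.8) and mutant 4 high for Sst (19.3 CPM, next 17.6). Control 4 was high for Uncx (45.8 CPM, next 36.0), and control 1 was at 0 CPM for Ckm (next 0.0269).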

How the results depend on the processing

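DESeq2 called 314 genes (184 higher, 130 lower), no low-count filter 212 (82 lower), a mean of at least 1 CPM 86 (54 higher), a sex term 88 (23 lower) and the Xist libraries 49 (42 higher, 7 lower). Leaving out 1 library gave 64 to 132 calls, 46 to 94 higher and 17 to 38 lower. The cause was not tested, except that fewer libraries or genes entered some of these fits. With the replicate block 64 genes were called (48 higher, 16 lower). Same-numbered libraries did not deviate together (correlations -0.134, -0.0726, -0.0286 and 0.284), and 1 of 4 controls correlated best with its own number. The difference between both deletions gave 17 calls with DESeq2, 1 with the replicate block and 0 to 8 without single libraries. Over 65 named genes and 16 alternatives, 831 of 1031 values kept direction and side of the threshold, 184 lost the call, 14 gained it and 2 reversed. Those 2 were Hbb-bt with a sex term (0.007014) and in the Xist libraries (0.004682). The share of TEC genes reversed without mitochondrial genes (-0.0001171 percentage points) and ran from -0.02216 to 0.05681 without single libraries, and that of rRNA from -0.06868 to 0.001817, above 0 only without control 2. The number of libraries and the low counts of genes near 1 CPM limit the precision.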
